A study of Homo sapiens with 6 samples.

Results

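Processed pseudogenes with reads in AsPC-1 cells were described here together with the protein-coding genes they resemble. The members were chosen by their counts, with no regard to group. They were the genes annotated as processed pseudogenes whose counts summed to at least 300 over 6 RNA sequencing libraries, which held for 134 of 10191 processed pseudogenes and of 58735 genes in all. AsPC-1 is an established human pancreatic cancer cell line. In the study, 3 libraries came from cells that received an empty lentivirus (Vector) and 3 from cells that received a lentivirus with the cDNA of the secreted matrix metalloproteinase MMP28 (OE-MMP28). The study's methods describe the MMP28 vector as one with GFP and puromycin resistance, after which stable cells were selected with puromycin. No uninfected library was analysed here. The labels do not say whether the 3 samples of a group came from separate cultures, and the p-values then measure only the spread between these samples, which may be technical. A parent was taken as the protein-coding gene with the symbol of the pseudogene without its final P and digits. It was found for 90 members, which share 72 parents, and the other 44 members carry clone-based or other names.

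A processed pseudogene is a copy of a messenger RNA that was reverse transcribed and inserted back into the genome, usually by the machinery of LINE-1 retrotransposons. Such copies lack the introns and the promoter of the parent. Housekeeping genes with abundant short messages, above all those of ribosomal proteins, have left many of them. Some copies are transcribed from nearby promoters, but a copy that is almost identical to its parent can also be assigned reads that came from the parent's message.

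The members looked like such copies. Of the 134, 128 had 1 annotated exon, and their lengths ran from 78 to 6821 bases with a median of 736. The closest protein-coding match was a ribosomal protein gene for 52 members, which held 54.4% of all member counts. Over the 90 pairs the alignment to the coding sequence of the parent was 98.7% identical in the median (74.96% to 100%), and 64 pairs were at least 98% identical. The match closest by sequence was the parent of the symbol in 89 pairs, with EIF5AP4 as the exception, which was closest to EIF5AL1. Stretches of 50 bases were used to ask whether a read could be told apart from reads of another gene. In the median member 62.7% of these stretches also occurred in an annotated transcript of another gene. For 13 members all of them did, and these held 15.5% of the member counts, while 6 members shared none.

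Pairs of 2 kinds are shown by their sequence, each as the gap-free stretch of 120 bases with the most mismatches, from the GENCODE 29 annotation on GRCh38, on the coding strand, with mismatched bases in capitals. The first kind rose in OE-MMP28. SPCS2P4 (chr1:28096303-28096422, minus strand) had 2 mismatches to bases 1 to 120 of the coding sequence of SPCS2, ANXA2P2 (chr9:33624374-33624493, plus strand) had 5 to bases 155 to 274 of ANXA2, and EIF4EP2 (chr17:49424803-49424922, minus strand) had 2 to bases 1 to 120 of EIF4E.
SPCS2P4: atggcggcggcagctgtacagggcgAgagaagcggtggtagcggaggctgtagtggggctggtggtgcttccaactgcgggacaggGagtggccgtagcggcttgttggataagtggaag
SPCS2: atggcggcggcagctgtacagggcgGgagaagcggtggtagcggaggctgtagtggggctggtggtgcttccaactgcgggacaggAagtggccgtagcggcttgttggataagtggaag
ANXA2P2: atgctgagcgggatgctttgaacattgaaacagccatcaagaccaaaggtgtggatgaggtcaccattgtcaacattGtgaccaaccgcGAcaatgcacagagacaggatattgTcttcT
ANXA2: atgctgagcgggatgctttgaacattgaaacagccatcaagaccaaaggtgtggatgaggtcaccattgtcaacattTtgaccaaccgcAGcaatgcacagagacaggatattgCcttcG
EIF4EP2: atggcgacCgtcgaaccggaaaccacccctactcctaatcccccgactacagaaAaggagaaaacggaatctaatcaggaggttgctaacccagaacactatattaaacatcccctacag
EIF4E: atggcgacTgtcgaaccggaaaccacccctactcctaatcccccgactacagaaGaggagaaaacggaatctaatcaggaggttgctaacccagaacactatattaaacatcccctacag
The second kind had high counts in 1 library only. RPL21P75 (chr7:20003042-20003161, plus strand) differed by 1 base from bases 278 to 397 of RPL21 and RPL10P9 (chr5:168616624-168616743, plus strand) by 3 from bases 273 to 392 of RPL10.
RPL21P75: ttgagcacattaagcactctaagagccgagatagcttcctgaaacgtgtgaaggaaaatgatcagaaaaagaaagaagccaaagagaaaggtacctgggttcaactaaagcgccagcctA
RPL21: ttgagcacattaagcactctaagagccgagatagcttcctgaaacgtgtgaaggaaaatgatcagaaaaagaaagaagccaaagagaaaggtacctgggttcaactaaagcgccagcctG
RPL10P9: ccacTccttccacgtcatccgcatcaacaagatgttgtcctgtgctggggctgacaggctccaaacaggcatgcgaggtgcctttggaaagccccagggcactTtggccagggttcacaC
RPL10: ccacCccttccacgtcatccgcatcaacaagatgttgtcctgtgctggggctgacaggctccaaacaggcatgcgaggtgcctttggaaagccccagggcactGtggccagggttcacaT
A read that covers none of the capitals fits both sequences of a pair equally well. The handling of such reads in the counting was not given in the sources used here, so every count of a member is uncertain to the extent that its sequence is shared.

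The libraries held 13633249 to 16691458 counts. A limit of 3 counts, taken as an approximate upper bound for a gene with a count of 0, was worth 0.180 to 0.220 CPM (counts scaled to the library total, with counting error alone considered). Members took 0.287%, 0.2999% and 0.269% of all counts in Vector replicates 1 to 3 and 0.259%, 0.3002% and 0.278% in OE-MMP28 replicates 1 to 3, so the groups overlapped. The 72 parents took 5.09% to 5.91%. MMP28 had 226, 352 and 355 counts in the Vector libraries and 591, 628 and 725 in the OE-MMP28 libraries, all of them higher (log2 fold change 0.90, SE 0.19, adjusted p = 0.00226 by edgeR). The epithelial genes KRT8, KRT18, KRT19, EPCAM and CDH1 had at least 1136 counts in every library. Of the fibroblast genes COL1A1, COL1A2, DCN and PDGFRB had at most 11 counts and LUM had 1499 to 2707. Of the leukocyte genes PTPRC, CD68 and CD3E had at most 9 counts and CD14 had 17 to 30. Differences between groups are log2 fold changes of OE-MMP28 against Vector from edgeR's quasi-likelihood test, adjusted over 15319 genes, and levels are CPM after TMM scaling of the library totals. In bulk RNA, fewer cells with a transcript and less of it per cell cannot be told apart.

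Vector replicate 2 stood apart from the other libraries in the members. There, 13 of 134 members (9.70%) were at least 1.5-fold above each of the other 5 libraries, against 2.68% of all genes tested, and 7 members (5.22%) were at least 3-fold above, against 0.144% of all genes. In each of the other libraries 0 to 2 members stood at least 1.5-fold above the rest and none 2-fold. The rule for members counted Vector replicate 2 in its sum, so high counts there could make a gene a member. AP001000.1, HSP90AB3P and KRT8P33 had 280, 152 and 255 counts there and at most 60, 42 and 21 elsewhere. Without that library they, and AC078819.1 among the 13, would be under the limit of 300 counts. The excess of members over all genes was thus in part set by the rule. Over all genes tested Vector replicate 2 also stood apart. In each of the other libraries 0.366% to 0.516% of all genes were at least 1.5-fold above the rest and 0 were 3-fold above. Vector replicate 2 had the fewest counts of the 6 libraries, and 14.5% of its counts were mitochondrial, against 8.80% to 14.8% in the others. The source of the high counts there was not tested, nor the part of depth or of RNA quality in them. Calls that were lost without this library are named as such.

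**Figure D1:**
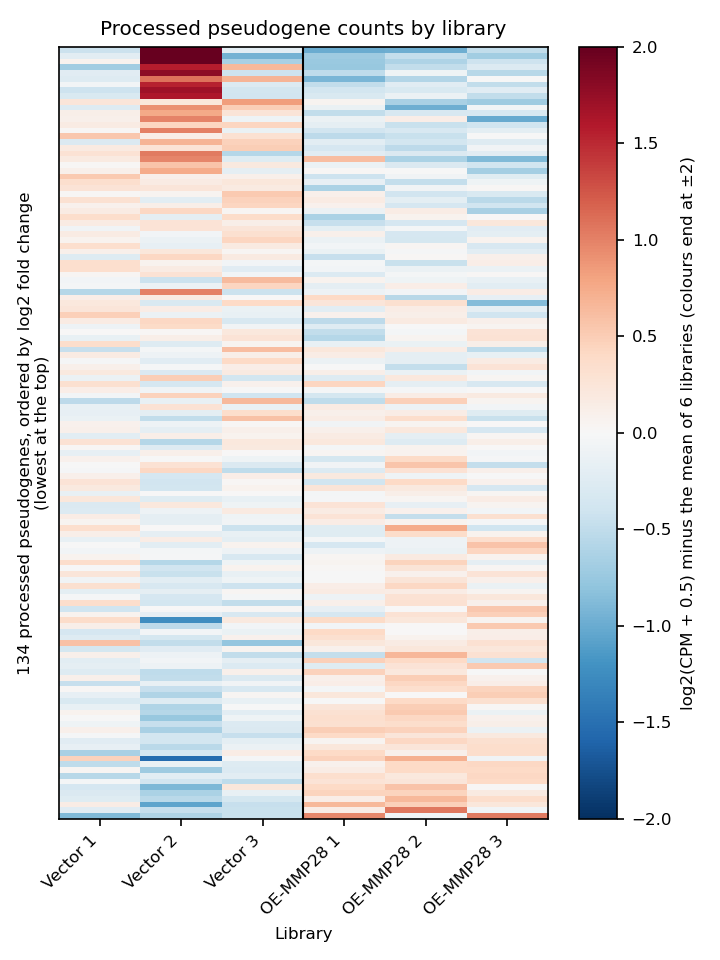
Each row is 1 of the 134 processed pseudogenes and each column 1 library, with the colour giving log2(CPM + 0.5) minus the mean over the 6 libraries, and rows ordered by log2 fold change. The darkest cells lie at the top in Vector replicate 2, where 13 members are at least 1.5-fold above every other library.

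The member rule used the sum over all 6 libraries, so levels are given as a description. The 10 members with the highest counts held 44.8% of the member counts. Per length, RPS2P5 had 268 ± 55.2 FPKM (SD, n = 3) in Vector and 347 ± 125 in OE-MMP28, which was 38.0% of the level of RPS2, a protein of the small ribosomal subunit. Its counts of 4289, 3281 and 2716 against 2986, 6466 and 5357 overlapped between the groups (log2 fold change 0.39, SE 0.21, adjusted p = 0.202). EEF1A1P5, a copy of the elongation factor that brings tRNA to the ribosome, had 4160, 3450 and 3064 counts in Vector and 3155, 3985 and 3345 in OE-MMP28, again with overlap, and 10.6% of the FPKM of its parent. H3F3AP4, a copy of a gene for the replacement histone H3.3, had 204% of the FPKM of H3F3A, and every 50-base stretch of it also lies in another transcript. Its groups overlapped as well, at 64.7, 81.6 and 78.5 CPM against 83.6, 65.7 and 77.3 CPM. In all pairs the FPKM of the pseudogene was between 0.246% and 652% of that of the parent, with a median of 14.95%, and it was above the parent's in 12 of 90 pairs. At the limit of the rule, PPIAP29, MAPK8IP1P2 and EIF4BP3 had sums of 304, 305 and 307, and TPI1P1, AC087385.1 and TMEM183B had 291, 291 and 289 and were left out.

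Some pseudogenes had higher levels per length (FPKM) than their closest coding genes. AC008038.1 (99.2% identical to EEF1G, a subunit of the elongation factor complex eEF1) had 3120, 2392 and 2703 counts in Vector and 2893, 2860 and 3094 in OE-MMP28, while EEF1G itself was listed at 0 in all 6 libraries. In the annotation 99.9% of the exonic bases of EEF1G also lie in exons of AP002990.1 on the same strand. AC116533.1 had all of its sequence in common with RPL36A, a protein of the large subunit, and a mean of 363 FPKM against 6.80 FPKM for RPL36A. AC024293.1, 99.6% identical to the small subunit gene RPS10, had 71.9 FPKM against 1.28 FPKM, and 39.4% of the exonic bases of RPS10 lie in other genes, most of them in RPS10-NUDT3. In FPKM, the closest coding gene was at 0 for 4 members and below the member for 22 of 130. The part of overlapping annotation in these values was not tested.

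Of the 134 members, 9 were higher in OE-MMP28 (6.72%) and 14 were lower (10.4%). Over all genes tested 11.7% were higher and 11.6% lower, so that the members were called in 17.2% of cases against 23.4% of all genes. The CPM values of the groups did not overlap in 33 members (24.6%), against 38.1% of all genes. The median log2 fold change was 0.00 in the members and 0.01 in all genes. Without Vector replicate 2, 5 members were higher and 6 lower (8.21% in all), against 9.53% and 9.17% of all genes (18.7% in all). All 11 of these were among the 23, and the other 12 of the 23 were called only with all 6 libraries. Leaving out another library also moved these counts. The members that were higher numbered 18 without Vector replicate 1, 5 without Vector replicate 3 and 3 without OE-MMP28 replicate 2, and those that were lower numbered 9, 5 and 7 without OE-MMP28 replicates 1, 2 and 3. SPCS2P4, ANXA2P2 and AC018638.4 were among the 4 members called without each library in turn. Among the 264 processed pseudogenes that were tested but were no members, 4 were higher and 13 lower. All members but KRT8P33 reached the lower limit of the filter on low counts, 0.655 CPM, in every library.

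SPCS2P4 rose most among the members that were called. It is a copy of SPCS2, a subunit of the signal peptidase complex that trims proteins entering the endoplasmic reticulum. It had 47, 52 and 64 counts in Vector and 198, 91 and 216 in OE-MMP28. The groups did not overlap, with OE-MMP28 replicate 2 the lowest of them (log2 fold change 1.47, SE 0.28, adjusted p = 0.000957, and 1.49 without Vector replicate 2). SPCS2 rose less, from 118, 92.5 and 110 CPM to 166, 166 and 152 CPM (log2 fold change 0.60, SE 0.15, adjusted p = 0.00641). The log2 ratio of their counts differed by 0.79 between the groups, with SDs of 0.37 and 0.69, and overlapped (two-sided exact permutation test, p = 0.3). SPCS2P4 and ANXA2P2 were called under each of the 15 alternative fits.

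ANXA2P2 is a copy of ANXA2, a calcium-dependent phospholipid-binding protein of the cell membrane. Its counts were 735, 828 and 899 in Vector and 1421, 1285 and 1563 in OE-MMP28, with no overlap (log2 fold change 0.64, SE 0.15, adjusted p = 0.0053). ANXA2 rose by nearly as much, from 979, 1230 and 1195 CPM to 1632, 1544 and 1770 CPM (log2 fold change 0.54, SE 0.14, adjusted p = 0.0102). The log2 ratio of pseudogene to parent counts was -4.32 ± 0.03 in Vector and -4.21 ± 0.02 in OE-MMP28 (SD, n = 3). This is a difference of 0.10 with no overlap and p = 0.1, the smallest that the exact permutation test of 3 against 3 can give. Of the 50-base stretches of ANXA2P2, 59.2% also lie in ANXA2.

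The copies of EIF4E, which binds the cap of messenger RNA, of AK4, an adenylate kinase of mitochondria, and of HNRNPC, a nuclear RNA-binding protein, rose with parents that were also higher. EIF4EP2 had 97, 33 and 58 counts against 146, 126 and 111, with no overlap and with the lowest value in Vector replicate 2 (log2 fold change 0.90, SE 0.29, adjusted p = 0.0264). EIF4E rose by 0.58 (adjusted p = 0.0308). AK4P1 had 56, 41 and 45 counts against 77, 150 and 69, so that OE-MMP28 replicate 2 was 1.99-fold above the next library (log2 fold change 0.93, adjusted p = 0.0321). Without that library the log2 fold change of AK4P1 was 0.46 and it was not called (adjusted p = 0.368). AK4 rose by 0.73 (adjusted p = 0.00221) and was called without each library in turn. HNRNPCP2 had 134, 68 and 102 counts against 151, 177 and 189 (log2 fold change 0.63, adjusted p = 0.0487), and HNRNPC rose by 0.46 (adjusted p = 0.0194). HNRNPCP2 lies in an intron of C2orf88 on the same strand, which fell by 1.03. Without Vector replicate 2 these 3 copies were not called, at adjusted p-values of 0.0985, 0.0514 and 0.185 by edgeR, and neither was the parent EIF4E (log2 fold change 0.39, adjusted p = 0.136). HNRNPC was not called without Vector replicate 3 or OE-MMP28 replicate 2 (adjusted p = 0.0671 and 0.0597). EIF4EP2 and EIF4E were also lost without Vector replicate 3 or OE-MMP28 replicate 1 or 2 (adjusted p from 0.0714 to 0.132). HNRNPCP2 was lost without each library but Vector replicate 1, and AK4P1 also without Vector replicate 3 (adjusted p = 0.0796).

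The other 3 members that rose carry clone-based names and resemble genes of the small ribosomal subunit. AC034236.1, 97.9% identical to RPS25, had 21.1, 17.2 and 19.5 CPM in Vector and 27.4, 39.6 and 32.2 CPM in OE-MMP28 (log2 fold change 0.78, SE 0.18, adjusted p = 0.00361). RPS25 itself rose by 0.59 (adjusted p = 0.0054). AC007969.1, 97.3% identical to RPS15, had 6.80, 8.97 and 8.12 CPM against 10.5, 13.2 and 13.3 CPM (log2 fold change 0.63, SE 0.21, adjusted p = 0.0309), while RPS15 had a log2 fold change of 0.23 (adjusted p = 0.284). In both copies every OE-MMP28 library lay above every Vector library, and both were also called without Vector replicate 2. AC034236.1 was not called without OE-MMP28 replicate 2 (adjusted p = 0.0515), nor AC007969.1 without Vector replicate 1 or 3 or OE-MMP28 replicate 2 or 3 (adjusted p from 0.083 to 0.142). AC024293.1, the copy of RPS10 above, had 35.9, 25.4 and 28.2 CPM against 34.1, 44.8 and 48.1 CPM, where the groups overlapped (log2 fold change 0.50, SE 0.18, adjusted p = 0.0475), and it was not called without Vector replicate 2 (adjusted p = 0.149).

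**Figure D2:**
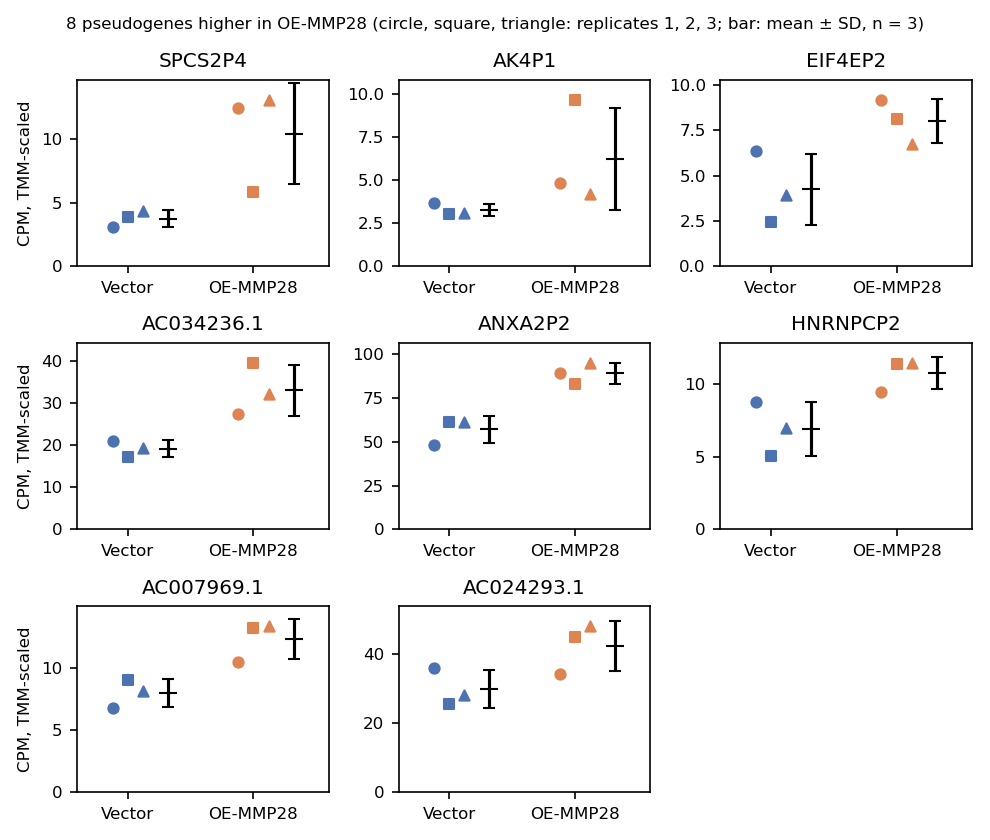
CPM in each library is plotted for 8 members that were higher in OE-MMP28, with the mean and SD of 3 libraries beside the points of each group. SPCS2P4 has its lowest OE-MMP28 value in replicate 2, and the value of AK4P1 in that library is 1.99-fold above the next.

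The largest falls among the members rested on Vector replicate 2. KRT8P33, a copy of the keratin gene KRT8, had 18, 255 and 21 counts in Vector and 10, 10 and 18 in OE-MMP28. Vector replicate 2 was 13.2-fold above the next library, and the log2 fold change was -3.16 (SE 0.74, adjusted p = 0.00452) with it and -0.72 (adjusted p = 0.342) without it. KRT8P33 reached the filter limit in 3 Vector libraries and 1 OE-MMP28 library, so that it was tested through the group where it is high. It lies on the same strand in an intron of CEP120, which fell by 0.68 (adjusted p = 0.0135). RPL21P75, a copy of a gene of the large ribosomal subunit, had 90, 814 and 49 counts in Vector and 64, 75 and 67 in OE-MMP28, which is 10.2-fold above the next library. Its log2 fold change of -2.42 (SE 0.64, adjusted p = 0.00943) became -0.11 (adjusted p = 0.847). AP001000.1, 99.2% identical to the co-chaperone gene DNAJB6, had 60, 280 and 32 counts against 32, 35 and 44. Its log2 fold change was -1.94 (adjusted p = 0.0115) and without that library -0.41 (adjusted p = 0.466).

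The same library carried high values of RPL10P9, RPL7AP6 and HSP90AB3P, which were not called with all 6 libraries either. RPL10P9 had 173, 679 and 171 counts in Vector and 187, 190 and 214 in OE-MMP28, and its log2 fold change was -0.98 (adjusted p = 0.0628) with and 0.10 without Vector replicate 2. RPL7AP6 had 333, 1136 and 303 counts against 349, 389 and 316, and changed from -0.94 (adjusted p = 0.0583) to 0.05. HSP90AB3P, which resembles a gene of the cytosolic chaperone HSP90, had 37, 152 and 30 counts against 30, 42 and 30. AC012085.1, 99.9% identical to the gene of the glycolytic enzyme PGAM1, had 74, 212 and 60 counts against 55, 66 and 57, and its log2 fold change of -1.14 (adjusted p = 0.032) became -0.27. The other members at least 1.5-fold above every library there were EEF1B2P3, RPL41P1, EIF4BP7, RPL22P1, RPL21P16 and AC078819.1, at 1.62-fold to 1.98-fold. RPL41P1 (88, 398 and 224 counts against 87, 104 and 129) was lower by 1.33 on the log2 scale with all libraries (adjusted p = 0.0106) and by 0.66 without Vector replicate 2 (adjusted p = 0.0994).

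Copies of the same parent were not all high in Vector replicate 2. Both copies of RPL21 and both copies of PGAM1 were among the 13 members, RPL21P75 at 10.2-fold and RPL21P16 at 1.69-fold, AC012085.1 at 3.25-fold and AC078819.1 at 1.62-fold above the next library. KRT8 had 8304 CPM there, within the 5067 to 10026 CPM of the other libraries, and RPL21 had 232 CPM, within 220 to 394 CPM. RPL10 and RPL7A had the highest values there, at 1557 and 1713 CPM against 1376 and 1684 CPM in the next libraries. Of the other closest genes, DNAJB6, PGAM1, EIF4B and EEF1B2 were also highest there, at 246, 324, 713 and 812 CPM. Their next libraries had 238, 316, 637 and 601 CPM. HSP90AB1, RPL41 and RPL22 were not highest there. RPL10P16, the other copy of RPL10, had 70.3 CPM there, 1.27-fold above the next library, where RPL10P9 was 3.88-fold above it. Of the copies of EIF4B, EIF4BP7 was 1.89-fold above the next library, whereas EIF4BP3 and EIF4BP6 had 2.00 and 3.19 CPM, 0.439 and 0.677 times the highest other library.

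**Figure D3:**
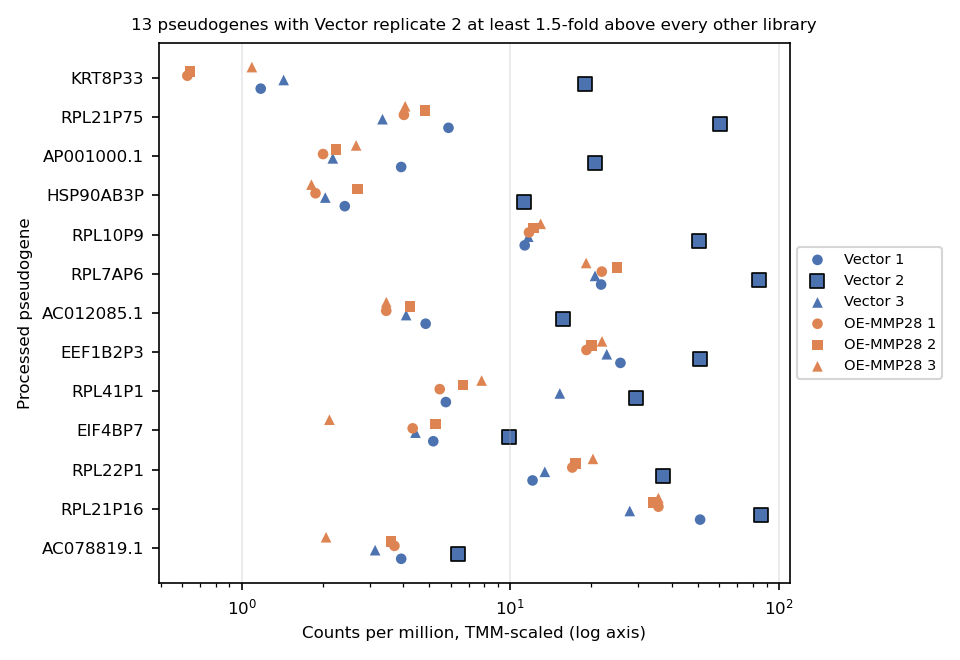
CPM (log axis) in each of the 6 libraries is plotted for the 13 members in which Vector replicate 2, drawn as a large square with a black edge, is at least 1.5-fold above every other library. The other 5 libraries lie to the left of it in each row, and the gap runs from 1.62-fold to 13.2-fold.

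Falls that were called with and without Vector replicate 2 were seen in 6 members. RPS7P1 and RPS7P11 are both copies of RPS7, a protein of the small ribosomal subunit. RPS7P1 had 80.2, 71.2 and 74.2 CPM in Vector and 56.6, 45.5 and 59.5 CPM in OE-MMP28 (log2 fold change -0.48, SE 0.16, adjusted p = 0.0297). RPS7P11 had 11.1, 13.4 and 13.4 CPM against 8.66, 7.13 and 7.40 CPM (log2 fold change -0.71, SE 0.20, adjusted p = 0.0152). RPS7 itself had 600, 575 and 622 CPM against 445, 447 and 507 CPM, which did not overlap and did not pass the test (log2 fold change -0.36, adjusted p = 0.0638). RPS7P11 lies on the opposite strand in an intron of NSF, which rose by 0.54. RPS7P1 was not called without Vector replicate 1 or 3 or OE-MMP28 replicate 2 (adjusted p from 0.0796 to 0.192), nor RPS7P11 without Vector replicate 3 or OE-MMP28 replicate 2 or 3 (adjusted p from 0.052 to 0.0823).

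AC007318.1, 99.4% identical to VDAC2, a channel of the outer mitochondrial membrane, had 27.0, 20.1 and 22.9 CPM against 12.7, 13.3 and 18.2 CPM (log2 fold change -0.66, SE 0.19, adjusted p = 0.0162), and VDAC2 fell by 0.45 (adjusted p = 0.0287). AC006978.1 and AC069282.1 shared no 50-base stretch with another gene. AC006978.1 was 82.5% identical to PSMC5, an ATPase of the proteasome, and had 151, 142 and 182 counts against 108, 91 and 135 (log2 fold change -0.66, SE 0.21, adjusted p = 0.031). PSMC5 rose by 0.60 (adjusted p = 0.0104), in the opposite direction. AC069282.1 was 81.9% identical to TTK, a kinase of the mitotic spindle checkpoint, and had 122, 106 and 179 counts against 111, 63 and 64 (log2 fold change -0.91, SE 0.27, adjusted p = 0.0168). TTK had a log2 fold change of 0.27 (adjusted p = 0.256). AC018638.4 had no coding match and fell from 16.6, 26.1 and 18.2 CPM to 10.7, 12.1 and 12.1 CPM (log2 fold change -0.80, SE 0.20, adjusted p = 0.00613), and it too was called under all 15 alternative fits. In each of these 4 members every OE-MMP28 library was below every Vector library in CPM, whereas the unscaled counts of AC069282.1 overlapped. AC007318.1 was not called without Vector replicate 1 or OE-MMP28 replicate 2 (adjusted p = 0.0559 and 0.0908). AC006978.1 was not called without Vector replicate 3 or OE-MMP28 replicate 1 or 2, nor AC069282.1 without Vector replicate 3 or OE-MMP28 replicate 2 or 3 (adjusted p from 0.0559 to 0.157).

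The remaining 3 members that were lower with all libraries were not called without Vector replicate 2. AC005077.4, which has no coding match, had 50, 122 and 99 counts against 30, 39 and 66 (log2 fold change -1.17, adjusted p = 0.0174, and -0.84 with adjusted p = 0.0816 without that library). RPL7P9, a copy of a large subunit gene, had 77.5, 114 and 87.7 CPM against 70.5, 62.6 and 57.8 CPM (log2 fold change -0.55, adjusted p = 0.0206, and -0.38 with adjusted p = 0.119). EEF1B2P3 had 25.7, 51.0 and 22.9 CPM against 19.2, 20.1 and 22.0 CPM, and its parent EEF1B2, which exchanges the nucleotide on the elongation factor, was also highest in that library, at 812 CPM against 601 CPM in the next. EEF1B2P3 fell by 0.70 (adjusted p = 0.0334) and EEF1B2 by 0.46 (adjusted p = 0.0394), and without Vector replicate 2 the adjusted p-values were 0.396 and 0.229 by edgeR.

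By the function of the parent, copies of ribosomal protein genes were the biggest class. Of its 33 members with a parent, 0 were higher and 5 lower, with a median log2 fold change of -0.11, beside 11.7% higher and 11.6% lower over all genes, and 2 of the 5, RPS7P1 and RPS7P11, were called without Vector replicate 2. Of their 24 parents, RPL21 was higher and RPS20 lower, with a median of 0.08. The class takes only copies with a parent by symbol. AC034236.1, AC007969.1 and AC024293.1, closest to RPS25, RPS15 and RPS10, lie outside it and were higher, AC024293.1 not without Vector replicate 2. No lower member outside the class was closest to a ribosomal protein gene. Of 13 copies of translation factor genes 1 was higher and 1 lower (median 0.21), and 0 were called in either direction without Vector replicate 2 by edgeR. Among 8 copies of RNA-binding and splicing genes 1 was higher and 0 were lower (median 0.45), and HNRNPCP2, the 1, was not called without that library. Copies of chaperone and cyclophilin genes (4) and of chromatin and high-mobility-group genes (4) had 0 calls, with log2 fold changes from -0.66 to 0.36 and from -0.18 to 0.35. In the 44 members without a parent 3 were higher and 7 lower, or 2 and 4 without Vector replicate 2. By position, 36 members lay inside a protein-coding gene on the opposite strand (2 higher, 3 lower), 24 on the same strand (3 higher, 2 lower) and 74 outside (4 higher, 9 lower), beside 23.4% of all genes called. Without Vector replicate 2 these counts were 2 higher and 2 lower on the opposite strand, 0 and 1 on the same strand by edgeR, and 3 and 3 outside. The strand setting of the counting was not given in the sources used here.

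Among the 72 parents 11 were higher and 3 lower, or 19.4% against 23.4% of all genes, with a median log2 fold change of 0.16. Higher parents numbered 7, 4, 5 and 7 without Vector replicates 2 and 3 and OE-MMP28 replicates 2 and 3, and lower parents 1 without OE-MMP28 replicate 1 or 2. Those that were higher and had no called copy were EIF5A, a translation factor, HMGB1, a chromatin protein, RCN1, a calcium-binding protein of the endoplasmic reticulum, TMSB4X, which binds actin monomers, and VDAC1, a mitochondrial channel, at 0.39 to 0.54. Of these TMSB4X was called without Vector replicate 2, and EIF5A, HMGB1, RCN1 and VDAC1 were not (adjusted p = 0.0564, 0.129, 0.088 and 0.078 by edgeR). VDAC1 was lost without each of the 6 libraries, HMGB1 and RCN1 without each but Vector replicate 1, EIF5A also without Vector replicate 3 or OE-MMP28 replicate 2 or 3, and TMSB4X without Vector replicate 1 or 3 or OE-MMP28 replicate 1. RPL21 rose by 0.64 (SE 0.14, adjusted p = 0.00314), from 258, 232 and 220 CPM to 328, 389 and 394 CPM, and was called without each library in turn. It did not pass when the counts of its copies were added to its own (adjusted p = 0.0884). Those copies, RPL21P75 and RPL21P16, had their highest counts in Vector replicate 2, at 814 and 1158. The parents that fell were RAB11FIP1, an effector of the recycling endosome, by 0.78 (adjusted p = 0.00298), RPS20 by 0.41 (adjusted p = 0.0417, and not called without any 1 library other than OE-MMP28 replicate 3) and EEF1B2. Both the copy and the parent were called in 7 pairs. The directions were the same in SPCS2P4, AK4P1, EIF4EP2, ANXA2P2, HNRNPCP2 and EEF1B2P3 with their parents, and opposite in RPL21P75 and RPL21. Without Vector replicate 2 RPL21P75, AK4P1, EIF4EP2, HNRNPCP2 and EEF1B2P3 were not called, which leaves SPCS2P4 and ANXA2P2 as copies called with their parents.

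Across the 90 pairs the log2 fold changes of copy and parent had the same sign in 66. Pearson's r was 0.26 and Spearman's rho 0.48, as a description over pairs that share libraries, reads and, for 34 members, a parent. Without Vector replicate 2, r was 0.51 and rho 0.51, with the same sign in 65 pairs, and the median absolute difference between copy and parent was 0.15 instead of 0.21. The change of copy and parent lay within 0.25 of each other on the log2 scale in 53 pairs, and more than 1 apart in 4 pairs, or 1 without that library. The 4 were KRT8P33, RPL21P75, RPL41P1 and RPL21P16, all lower than the parent. The ratio of copy to parent counts did not overlap between the groups in 21 of 90 pairs (23.3%), higher in OE-MMP28 in 8 and lower in 13. With p = 0.1 as the smallest value the exact permutation test allows, and 0.429 after Benjamini-Hochberg adjustment over the 90 pairs, no pair could pass.

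**Figure D4:**
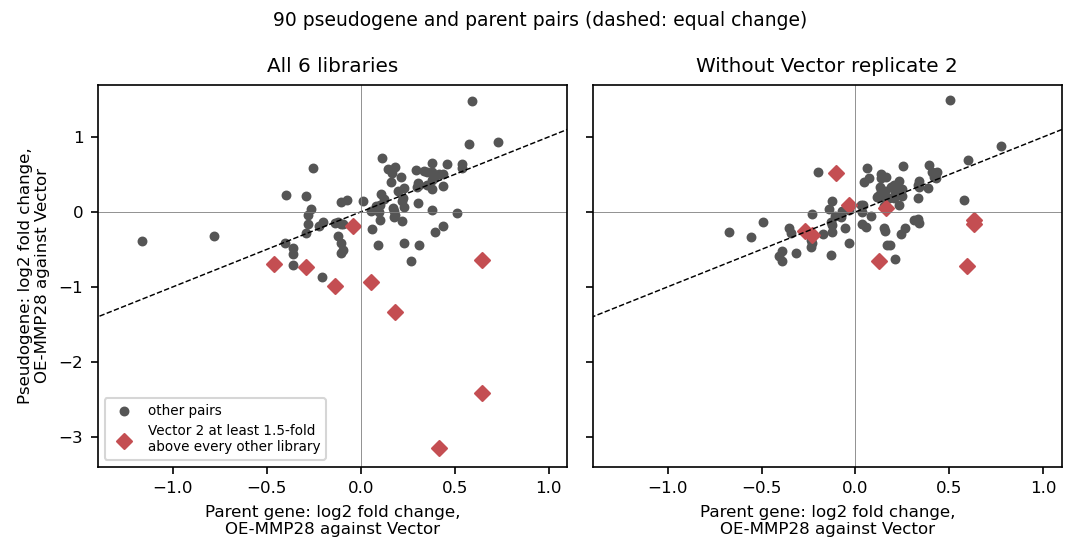
The log2 fold change of each pseudogene is plotted against that of its parent for 90 pairs, with all 6 libraries on the left and without Vector replicate 2 on the right, and red diamonds mark members at least 1.5-fold above every other library in Vector replicate 2. KRT8P33 and RPL21P75 lie at -3.16 and -2.42 on the left and at -0.72 and -0.11 on the right.

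The share of sequence in common with other transcripts did not order these differences. The median absolute difference between copy and parent was 0.64 in the 5 pairs with under 25% of the 50-base stretches shared, 0.21 in 20 pairs with 25% to 50%, 0.19 in 34 pairs with 50% to 75%, 0.22 in 22 pairs with 75% to under 100%, and 0.28 in 9 pairs with all shared. LSM12P1, identical to its parent in the coding sequence, was above it by 0.84, whereas CCT8P1, with 10.4% shared, was 0.93 below its parent. CCT8P1 lies in an intron of FMO5 on the same strand, which fell by 1.22 (adjusted p = 0.000819 by edgeR). The part of FMO5 in the counts of CCT8P1 was not tested. TMSB4XP8 had a log2 fold change of -0.01 beside 0.51 for TMSB4X, and HMGB1P10 -0.18 beside 0.44 for HMGB1.

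**Figure D5:**
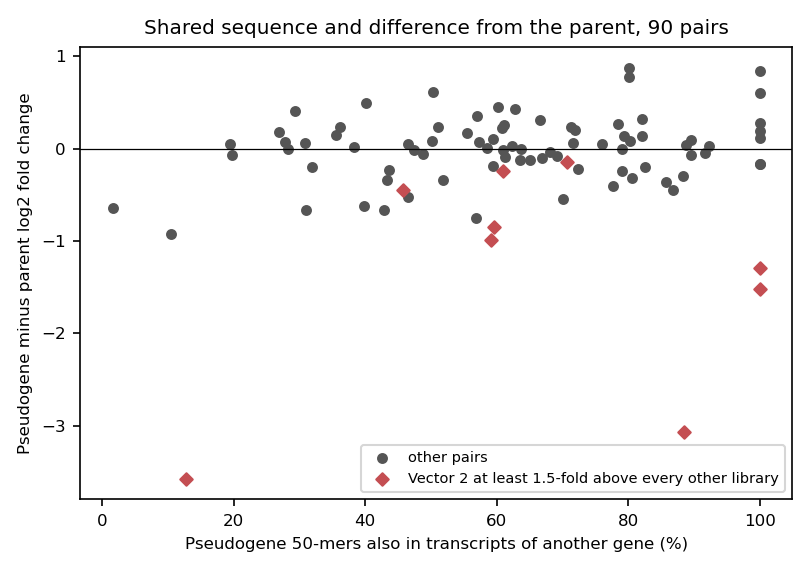
The difference between the log2 fold changes of pseudogene and parent is plotted against the percentage of 50-base stretches of the pseudogene that occur in transcripts of another gene, for 90 pairs, with red diamonds for members at least 1.5-fold above every other library in Vector replicate 2. Differences lie on both sides of 0 over the whole range, and the largest, -3.57 for KRT8P33, is at 12.7%.

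RHOT1P1, a processed pseudogene outside the count limit that earlier results of these data had brought up, had 29, 26 and 45 counts in Vector and 2, 1 and 3 in OE-MMP28. Its parent RHOT1, a GTPase of the outer mitochondrial membrane, had 455, 418 and 472 counts against 575, 475 and 483, with overlap in CPM. The counts of RHOT1P1 in OE-MMP28 were at or under the limit of 3 counts, so no fold is given.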

How the data were processed

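RNA from AsPC-1 cells was sequenced in 6 libraries, 3 with titles that read NC and 3 with titles that read OE, each with a replicate number. These were taken as the Vector and OE-MMP28 groups of the study. The authors deposited 1 table with whole-number read counts per gene and library that were not normalized or pooled. The same table gave FPKM values that the authors had scaled by gene length and library total, and columns of the authors' own comparison (fold changes and p-values), which were not used. The submitters' processing notes name HISAT2 2.0.5 and featureCounts 1.5.0-p3, but the handling of reads that fit several places, of reads in overlapping genes and of strand was not given in the sources used here. The coordinates of all 58735 genes and 58708 symbols were those of GENCODE 29 on GRCh38.

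Members and lists were chosen with earlier results of these data known. Counts were tested with edgeR 4.0.16 in R 4.3.3 (filterByExpr with a minimum count of 10 and total of 15, TMM scaling, quasi-likelihood test, Benjamini-Hochberg adjustment over all 15319 genes tested, call at an adjusted p under 0.05), after a test on simulated data. The study's methods name limma, which entered as an alternative (limma 3.58.1) beside DESeq2 1.42.0, other scaling, other filters, other limits on the count sum, leaving out each library, and the replicate number as a block. The standard error was taken from the fold change and its F statistic. Pseudogene and parent were compared by the log2 ratio of their counts (0.5 added) with a two-sided exact permutation test. Members were aligned to the coding sequence of the parent, and the closest coding gene was found with blastn 2.17.0. The rule for names took MMP28, among the called members 10 by size of rise and 10 by size of fall, the 10 with the highest count sum, the 3 on each side of the limit, their parents and containing genes, ANXA2P2 and RHOT1P1. The other members high in Vector replicate 2, other copies and closest coding genes, AC007318.1, AC006978.1, EIF5AP4, CCT8P1, LSM12P1, TMSB4XP8, HMGB1P10 and parents that were called were named after their values were seen. So was FMO5, the containing gene of CCT8P1. Some genes that this rule takes are counted but not reported singly here.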

Additional observations from a re-analysis of the deposited data

How the results depend on the processing

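Under the alternatives, 58 of the named genes gave 900 values. Of these, 751 kept their direction and their side of the threshold, 104 lost the call, 28 gained one and 17 changed sign. Members that were higher ranged from 3 to 18 and members that were lower from 5 to 18 when 1 library was left out, and higher parents from 4 to 13 and lower parents from 1 to 3. Lower members numbered 14 by edgeR, 8 by voom, and 7 by limma on log2(FPKM + 1) and on log2(FPKM + 0.1). The cause was not tested. Limits of 150 and 600 on the count sum gave 12 higher and 20 lower members, and 7 higher and 10 lower. Of the 12 members lost without Vector replicate 2, 11 were also lost without a further library, and KRT8P33 was not. No replicate pairing was seen, as deviations of same-numbered libraries correlated at 0.0168, 0.00798 and -0.0876, and with the replicate block 10 members were higher and 20 lower, with 10 parents higher and 2 lower.

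RPL22P1 had a log2 fold change of 0.017 by voom. H3F3AP4 had -0.0051 with DESeq2 size factors, -0.0050 by DESeq2, -0.0022 with a minimum count of 30 and -0.0352 with upper-quartile scaling. When 1 library was left out, the log2 fold change ranged from -0.0889 to 0.0932 in H3F3AP4, from -0.0774 to 0.029 in AC008038.1, from -0.0236 to 0.5111 in EIF4BP3, from -1.3261 to 0.0974 in RPL10P9, from -1.2648 to 0.0508 in RPL7AP6 and from -0.4618 to 0.5166 in RPL22P1. For the parents it ranged from -0.1111 to 0.0265 in RPL22 and from -0.0182 to 0.1616 in RPL7A. The upper end of RPL10P9, RPL7AP6 and RPL22P1 was reached without Vector replicate 2. Depth limits the lowest members, at about 300 counts over 6 libraries, and shared sequence limits all counts of copies that a read cannot tell from the parent.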
